A study of Mus musculus with 11 samples.

Results

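The tumour suppressor p53, the proteins that hold it in check and the messenger RNAs (mRNAs) of its best known targets were followed in mouse embryonic stem cells (ESCs). The 10 genes were chosen by symbol, among 23284 genes listed in each library: Trp53 (p53 itself), Mdm2 and Mdm4 (its inhibitors), and the targets Cdkn1a, Ccng1, Trp53inp1, Bbc3, Pmaip1, Btg2 and Plk2. All 10 had reads in all 11 libraries and all 10 passed the filter on low values. The study asked how loss of the Tet enzymes, which oxidise methylated cytosine in DNA and in RNA, alters mRNA stability. Wild-type (WT) ESCs and ESCs with a triple knock-out of Tet1, Tet2 and Tet3 (TKO) were grown on gelatin in serum with leukemia inhibitory factor. Ribosomal RNA-depleted RNA was sequenced from WT and TKO ESCs labelled non-treated (0 h) and from WT and TKO ESCs after 4 h with 10 μg/ml α-amanitin, which blocks RNA polymerase II, with 2 libraries in each of these 4 groups. A further group of 3 libraries held polyA-selected RNA of WT ESCs, for which no amanitin treatment is given. The paper names an equal volume of water as the control for amanitin, but no library is labelled as 4 h with water. The amanitin experiment was described as biological duplicates. The deposited values are TPM, a transcript abundance per length made from gene read counts divided by gene length and scaled to the same sum in each library.

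p53 is a transcription factor that stressed cells stabilise as a protein, and its mRNA level says little about its activity. It binds a response element made of a pair of 10-base motifs and switches on genes of cell-cycle arrest (Cdkn1a, which encodes the kinase inhibitor p21), of apoptosis (Bbc3, encoding Puma, and Pmaip1, encoding Noxa) and of its own restraint (Mdm2, the ubiquitin ligase that marks p53 for degradation, and Ccng1, cyclin G). Several of these mRNAs are known to be short-lived, and mouse ESCs are known to keep p53 mRNA high while p21 stays low.

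The response element is the sequence that p53 is known to bind, and its best matches are shown to compare how close to it each gene comes. In the NCBIM37 (mm9) genome, the best match to a pair of 10-base p53 motifs without a spacer was searched on both strands within 3000 bases of the 5′ end of each of 22380 protein-coding genes. A match was required to keep the C and the G of each core, and mismatches were counted over the other 16 of its 20 bases. The 6 matches below span the range from the closest to weak ones, and capitals mark the 4 core bases of each motif. They are read 5′ to 3′ on the strand of the gene.
Cdkn1a: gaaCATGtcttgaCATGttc
Ccng1: agaCCTGcccgggCAAGcct
Plk2: gatCTTGcttagaCTTGttg
Mdm2: ggtCAAGttgggaCACGtcc
Bbc3: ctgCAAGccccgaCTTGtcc
Btg2: aaaCCAGtcagatCAGGctt
The Cdkn1a match, at chr17:29227873-29227892 on the plus strand, lay 42 bases before the outermost annotated start of the gene and had 1 mismatch. All distances here are from this outermost 5′ end. Distances to the starts of other transcripts of a gene were not measured and can differ. The Ccng1 match, at chr11:40568964-40568983 on the minus strand, lay 160 bases before the start and also had 1 mismatch. Matches with at most 1 mismatch were found for 0.965% of the genes searched. The Plk2 match (chr13:111184602-111184621, plus strand, 640 bases before the start) had 2 mismatches, a closeness that 5.94% of genes reached. Those of Mdm2 (chr10:117147161-117147180, minus strand, 644 bases after the start, in an exon outside coding sequence) and Bbc3 (chr7:16894835-16894854, plus strand, 120 bases before the start) had 3 mismatches, reached by 25.3% of genes. The Btg2 match (chr1:135977939-135977958, minus strand, 2252 bases before the start) had 4 mismatches, which 61.9% of genes reached. A match is a description of letters, and no binding was measured here.

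Of the 4 genes without a printed match, Pmaip1 had a match with 2 mismatches, Trp53 and Mdm4 with 3 and Trp53inp1 with 5. Thus 4 of 10 genes had a match with at most 2 mismatches and 8 of 10 had one with at most 3. The GENCODE vM1 annotation of the same build places Trp53 at chr11:69393861-69405375 on the plus strand, Mdm2 at chr10:117125944-117147814 on the minus strand and Cdkn1a at chr17:29227924-29237667 on the plus strand. No annotated gene overlaps any of the 10. Trp53 has a processed pseudogene, and how reads that fit both copies were counted is not given in the sources used here.

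The polyA libraries held 72638478 to 82127547 reads in genes and the ribodepleted libraries 25507874 to 29781366, recovered from the steps of the TPM values. Tet1 had a mean scaled TPM (TPM divided by a size factor per library) of 133 in WT and 30.1 in TKO at 0 h, Tet2 of 51.8 and 7.45, and Tet3 of 1.45 in both, so that the labels fitted Tet1 and Tet2, while a remaining transcript does not speak to the deleted exons. The pluripotent cell markers (Pou5f1, Sox2, Nanog, Zfp42, Esrrb and Klf4) summed to 2203 to 2241 deposited TPM in WT and 1538 to 1551 in TKO at 0 h, and 5 of 6 were lower in TKO by the test used below. The trophectoderm list (Cdx2, Eomes, Elf5, Krt8 and Hand1) summed to 77.2 to 95.3 TPM in WT and 524 to 535 in TKO at 0 h. Krt8 made up most of this sum, Elf5 was under 1 TPM in every library, and 2 of the 3 tested members, Krt8 and Hand1, were higher in TKO. The primitive endoderm list summed to 3.42 to 6.25 TPM over all libraries, and the fibroblast list to 7.51 to 7.87 in WT and 12.4 to 12.8 in TKO at 0 h, with Dcn under 1 TPM in every library. At 0 h the sums of the pluripotent, trophectoderm and fibroblast lists differed between genotypes, with 2 of the 4 tested fibroblast markers higher in TKO. The primitive endoderm sum was 4.43 to 4.64 TPM in WT and 3.46 to 4.41 in TKO, with Gata4 lower and Dab2 higher in TKO. The part of these lists in the differences between TKO and WT was not tested. The libraries came from whole cultures, so fewer cells with a transcript and less RNA per cell cannot be told apart.

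In untreated cells, 6 of the 7 target mRNAs chosen were higher in TKO than in WT ESCs, and the seventh, Bbc3, did not pass the test. Of the 10 genes, 8 passed the test as higher in TKO and 0 as lower, where 27.8% of all 12467 tested genes passed as higher and 28.2% as lower. "Passed" means an adjusted p under 0.05 in limma on log2(scaled TPM + 1), with Benjamini-Hochberg adjustment over all tested genes. The median difference of the 10 genes was 0.61 on this log2 scale, against -0.02 over all tested genes. Cdkn1a, Ccng1, Pmaip1, Btg2 and Plk2 passed and also exceeded 1.5-fold, 5 of 10 genes, where 10.5% of tested genes did so upwards and 5.43% downwards. In scaled TPM, both TKO libraries lay above both WT libraries for all 10 genes, an order found for 39.1% of tested genes. Without size factors 8 of 10 genes again passed as higher and 0 as lower, while all tested genes split into 33.4% higher and 17.6% lower.

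**Figure D1:**
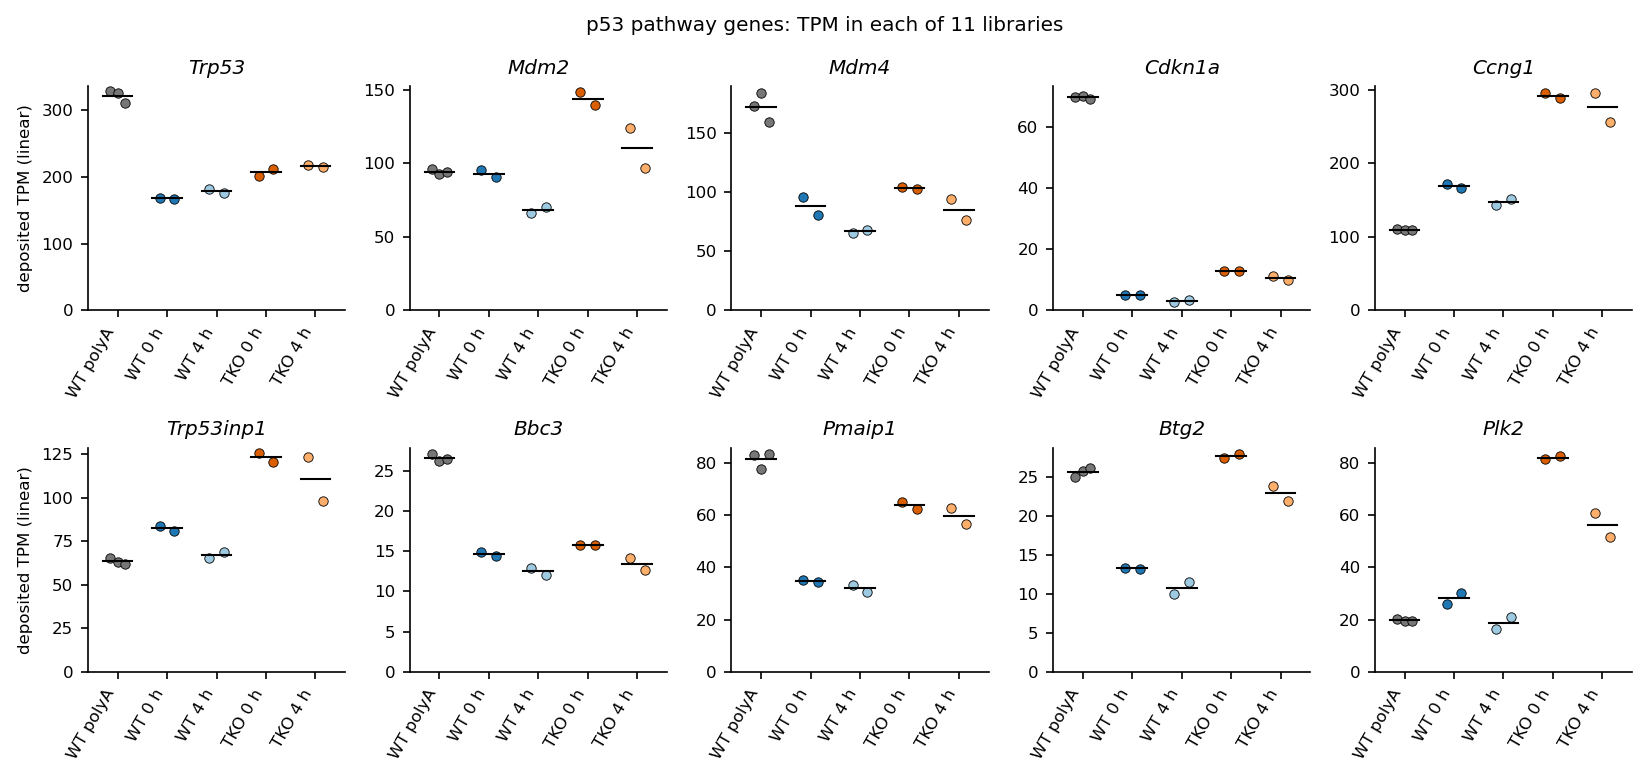
Deposited TPM (linear axis from 0) of the 10 genes in each of the 11 libraries, 1 point per library, with a bar at the group mean. Cdkn1a lay at 69.3 to 70.2 TPM in the polyA libraries and at 2.77 to 13.0 TPM in the ribodepleted ones. Mdm2, Ccng1, Trp53inp1, Btg2 and Plk2 reached their highest values in TKO cells.

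Among the genes of cell-cycle arrest, Cdkn1a was low in ribodepleted WT RNA, with 5.12 and 4.89 deposited TPM at 0 h, and stood at 13.0 and 12.8 TPM in TKO. These values rested on 143 to 145 reads in WT and 344 to 396 reads in TKO. On the scaled values the mean in TKO was 2.42-fold that in WT, and the log2 difference was 1.13 ± 0.09 (SE, n = 2 per group, limma adjusted p = 1.31e-05). Here and below, folds are ratios of mean scaled TPM and log2 differences are of scaled TPM + 1. For low genes such as Cdkn1a the log2 difference is therefore smaller than the fold implies. Btg2, an antiproliferative cofactor of mRNA deadenylation, gave 13.3 and 13.2 TPM in WT and 27.3 and 27.8 TPM in TKO. This was a 1.94-fold difference in scaled TPM (log2 0.91 ± 0.06, limma adjusted p = 8.09e-06). Plk2, a polo-like kinase of the stress response, had the largest difference of the 10, with 25.9 and 30.3 TPM in WT and 81.5 and 82.6 TPM in TKO. Its scaled level was 2.73-fold higher in TKO (log2 1.42 ± 0.11, limma adjusted p = 1.43e-05). Ccng1, which recruits a phosphatase to Mdm2, was an abundant target, with 171 and 167 TPM in WT and 296 and 289 TPM in TKO, 1.62-fold on the scaled values (limma adjusted p = 9.7e-06). For each of these 4 genes the gap between genotypes exceeded the gap between duplicates, and no library of a genotype reached the values of the other. Whether the duplicates of a genotype came from 1 clone is not given in the sources used here. Differences between clones and between genotypes therefore cannot be told apart in any comparison of TKO with WT.

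The apoptotic targets did not move together. Pmaip1, whose product Noxa neutralises Mcl1, had 35.2 and 34.3 TPM in WT and 65.0 and 62.4 TPM in TKO, a 1.71-fold difference in scaled TPM (log2 0.76 ± 0.06, limma adjusted p = 1.49e-05). Bbc3, whose product Puma binds all antiapoptotic Bcl2 proteins, had 14.9 and 14.4 TPM in WT and 15.8 in both TKO libraries. Its log2 difference on the scaled values was 0.01 (95% confidence interval -0.14 to 0.16, limma adjusted p = 0.873). The interval leaves out changes of the size seen for Pmaip1. Trp53inp1, a stress-induced protein that acts in p53 phosphorylation and autophagy, stood at 83.9 and 81.0 TPM in WT and at 126 and 121 TPM in TKO, 1.40-fold in scaled TPM (limma adjusted p = 0.000554).

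Of p53 and its inhibitors, Trp53 and Mdm2 passed as higher in TKO and Mdm4 did not pass. Trp53 had 169 and 167 TPM in WT and 201 and 212 TPM in TKO, 1.15-fold on the scaled values (log2 0.20 ± 0.05, limma adjusted p = 0.00845). The call was lost without replicate 1 of WT at 0 h (adjusted p = 0.0585) and without replicate 2 of TKO at 0 h (adjusted p = 0.0884). Mdm2 was higher in TKO, with 148 and 140 TPM against 95.5 and 90.6 TPM in WT, 1.45-fold in scaled TPM (log2 0.53 ± 0.08, limma adjusted p = 0.000593). Mdm4, a relative of Mdm2 that binds p53 without strong ligase activity of its own, had 95.6 and 80.8 TPM in WT and 104 and 103 TPM in TKO. Its log2 difference of 0.14 did not pass (95% confidence interval -0.04 to 0.31, limma adjusted p = 0.163).

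**Figure D2:**
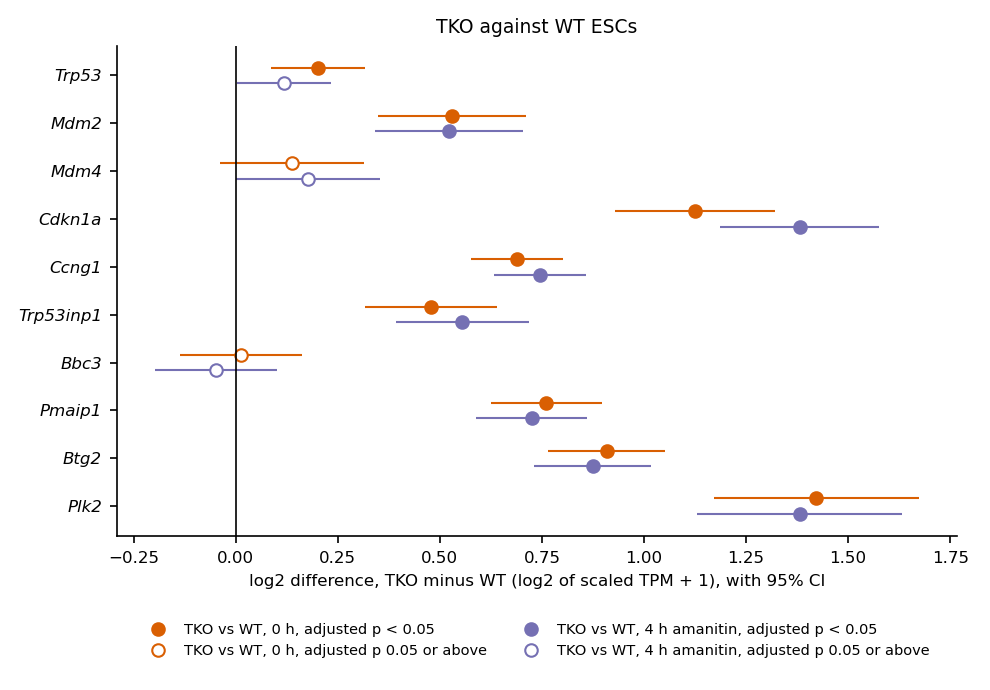
Log2 difference between TKO and WT ESCs for the 10 genes (log2 of scaled TPM + 1, horizontal axis), with 95% confidence intervals, at 0 h and after 4 h with amanitin, filled where the adjusted p was under 0.05. Plk2 and Cdkn1a lay furthest to the right at both times, and Bbc3 lay at 0.01 and -0.05.

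After 4 h with α-amanitin the genotypes were compared again, in libraries other than those compared at 0 h, with the estimate of spread in common. Of the 10 genes, 7 passed as higher in TKO and 0 as lower, where 29.1% of tested genes passed as higher and 30.3% as lower. The same 5 genes exceeded 1.5-fold, where 11% of tested genes did so upwards and 5.82% downwards. Cdkn1a had 2.77 and 3.50 deposited TPM in WT and 11.3 and 10.1 TPM in TKO, 3.06-fold in scaled TPM (log2 1.38 ± 0.09, limma adjusted p = 4.48e-06), on 84 and 103 reads in the WT libraries. Plk2 had 16.6 and 21.1 TPM in WT and 60.8 and 51.5 TPM in TKO, 2.67-fold in scaled TPM (limma adjusted p = 1.57e-05). The scaled levels of Btg2, Ccng1 and Pmaip1 were 1.90-, 1.68- and 1.67-fold higher in TKO, and those of Trp53inp1 and Mdm2 1.48- and 1.45-fold.

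Trp53 (log2 0.12, limma adjusted p = 0.0697), Mdm4 (log2 0.18, adjusted p = 0.0774) and Bbc3 (log2 -0.05, adjusted p = 0.545) did not pass after amanitin. The scaling and the filter on low values mattered for Trp53 and Mdm4. On deposited TPM without size factors Trp53 gave 0.28 (adjusted p = 0.000476) and Mdm4 0.33 (adjusted p = 0.0171), so that 9 of 10 genes passed as higher. With a filter at 5 TPM 9 of 10 genes passed too (Trp53 adjusted p = 0.0208, Mdm4 adjusted p = 0.0362), as they did after quantile normalisation. Without size factors the median of all tested genes itself shifted from -0.01 to 0.14, and the split of all genes to 40.3% higher and 16.6% lower. In scaled TPM both TKO libraries lay above both WT libraries for 9 of 10 genes, Bbc3 excepted, an order that 38.4% of tested genes had.

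The mRNAs of both inhibitors and of 2 targets were lower in WT ESCs after 4 h with amanitin than at 0 h. No library is labelled as 4 h with water, so amanitin and 4 h of culture cannot be told apart. Of the 10 genes 4 passed as lower after 4 h and 1 as higher, where 15.8% of tested genes passed as lower and 21.9% as higher. On the scaled values used in the fit none of the 10 genes passed with a change of more than 1.5-fold, as 2.01% of tested genes did downwards and 0.0882% upwards. Mdm2 went from 95.5 and 90.6 deposited TPM to 65.9 and 70.2 TPM, and the groups did not overlap. On the scaled values this was a 1.22-fold fall (log2 -0.29 ± 0.08, limma adjusted p = 0.0235). In deposited TPM the means of Cdkn1a were 5.00 at 0 h and 3.13 at 4 h, a wider ratio than on the scaled values, where it fell 1.43-fold (log2 -0.42 ± 0.09, limma adjusted p = 0.00918). Plk2 fell 1.34-fold in scaled TPM (log2 -0.41 ± 0.11, limma adjusted p = 0.0221) and Mdm4 1.18-fold (log2 -0.23 ± 0.08, adjusted p = 0.0436). TPM is a relative measure, so a loss of mRNA shared by all genes would not appear in it.

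Trp53 was the gene that passed as higher after amanitin in WT cells, with scaled TPM of 164 and 168 at 0 h and of 204 and 191 at 4 h, a 1.19-fold rise (log2 0.25 ± 0.05, limma adjusted p = 0.00908). This call rested on the scaling. In deposited TPM the values were 169 and 167 at 0 h and 181 and 176 at 4 h (log2 0.09, adjusted p = 0.142), after quantile normalisation the log2 difference was 0.10 (adjusted p = 0.103), and without size factors the median of all tested genes moved from 0.03 to -0.11. Ccng1 (log2 -0.04, adjusted p = 0.534), Pmaip1 (log2 0.04, adjusted p = 0.646), Bbc3 (log2 -0.06, adjusted p = 0.464), Btg2 (log2 -0.13, adjusted p = 0.121) and Trp53inp1 (log2 -0.14, adjusted p = 0.146) did not pass in limma on the scaled values. On deposited TPM 7 of 10 genes passed as lower and 0 as higher, with Ccng1, Trp53inp1 and Btg2 added, while all tested genes split into 25.2% lower and 3.18% higher.

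Single WT libraries decided how many genes passed after amanitin. When a single WT library was left out, fewer of the 10 genes passed, as did fewer of all tested genes. Without single libraries the log2 change was -0.30 to -0.26 for Mdm2, -0.33 to -0.14 for Mdm4 and -0.53 to -0.30 for Cdkn1a. It was -0.54 to -0.25 for Plk2 and 0.21 to 0.30 for Trp53. The log2 changes themselves kept their sign in these fits for all 5 genes. In scaled TPM 7 of 10 genes were lower in both treated WT libraries than in both untreated ones, as were 32.5% of tested genes, and 1 of 10, Trp53, was higher in both, as were 40.5%.

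**Figure D3:**
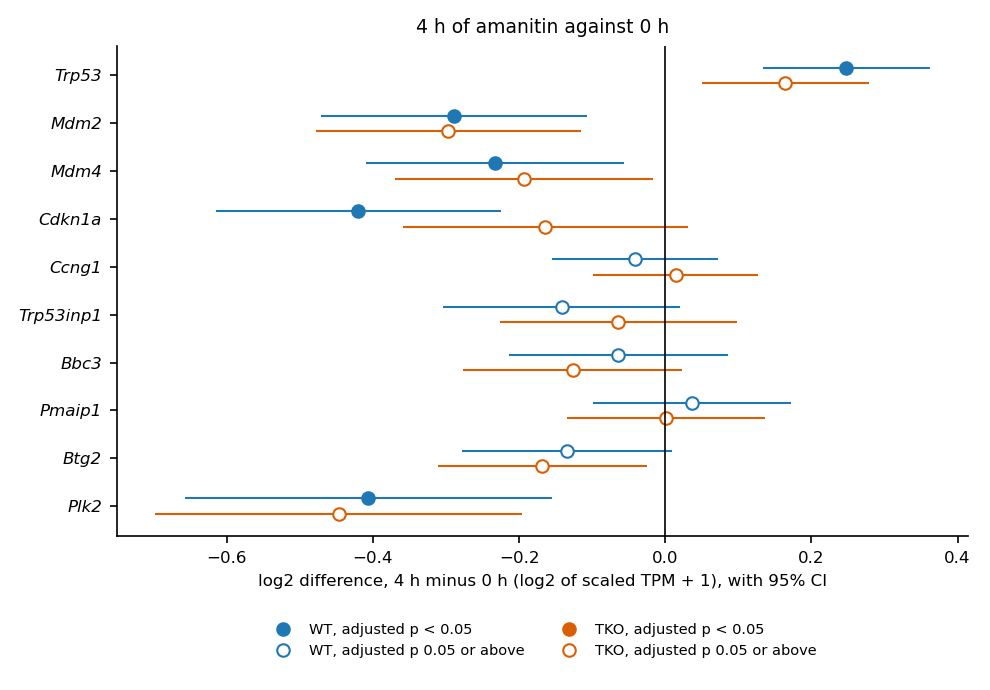
Log2 difference between 4 h with amanitin and 0 h for the 10 genes (log2 of scaled TPM + 1, horizontal axis), with 95% confidence intervals, in WT and in TKO ESCs, filled where the adjusted p was under 0.05. Filled points occur in WT for 5 genes and in TKO for 0, and the intervals of the genotypes overlap for every gene.

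In TKO ESCs 0 of 10 genes passed in limma after amanitin, where 0% of tested genes passed as higher and 0.265% as lower. At an unadjusted p under 0.05 there were 5 of 10 genes and 24.9% of all tested genes. Plk2 had the largest difference, from 81.5 and 82.6 deposited TPM to 60.8 and 51.5 TPM (log2 -0.45 on the scaled values, 95% confidence interval -0.70 to -0.20, adjusted p = 0.111). Mdm2 went from 148 and 140 TPM to 124 and 96.6 TPM (log2 -0.30, adjusted p = 0.12). Both passed as lower when limma with voom weights was run on the recovered reads, with adjusted p of 0.00372 for Plk2 and 0.0188 for Mdm2, a setting in which 4.03% of all tested genes passed as lower and 1.88% as higher. The treated TKO duplicates lay apart for several genes, with 123 and 98.2 TPM for Trp53inp1 and 296 and 257 TPM for Ccng1. Without replicate 1 of TKO at 4 h 5 of 10 genes passed (Trp53 as higher, and Mdm2, Mdm4, Trp53inp1 and Plk2 as lower) together with 22.5% of all genes tested, whereas without replicate 2 0 of 10 passed.

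The response to amanitin was then compared between genotypes directly, as the difference of the log2 differences. 0 of 10 genes passed, as did 0% of tested genes in either direction, by limma and by voom on the recovered reads. At an unadjusted p under 0.05 there were 0 of 10 genes and 7.52% of all tested genes. Cdkn1a had the largest value, a fall smaller in TKO by 0.26 on the log2 scale (95% confidence interval -0.02 to 0.53, limma adjusted p = 0.677). For Mdm2 the difference was -0.01 (95% confidence interval -0.26 to 0.25) and for Plk2 -0.04 (95% confidence interval -0.40 to 0.31). With 2 libraries per group, intervals of this width cannot show whether the 2 genotypes lost these mRNAs at the same rate.

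The polyA and ribodepleted libraries of WT cells were then compared. In a separate fit of the 3 polyA and the 2 untreated ribodepleted WT libraries, 6 of 10 genes passed as higher in polyA RNA and 3 as lower, where 40.2% of 12478 tested genes passed as higher and 40.8% as lower. Most of all tested genes thus passed as well, so that the count of members that passed does not set them apart. Beyond 1.5-fold there were 6 of 10 genes upwards and 2 downwards, against 18.7% and 16.4% of tested genes. Without size factors the counts of 6 and 3 were the same, and all tested genes split into 46.0% higher and 33.6% lower. Cdkn1a stood at 70.0, 70.2 and 69.3 deposited TPM in polyA RNA and at 5.12 and 4.89 TPM in ribodepleted RNA, 13.0-fold in scaled TPM (log2 3.47 ± 0.04, limma adjusted p = 5.27e-11). Pmaip1 was 2.18-fold higher in polyA RNA, Mdm4 1.81-fold, Btg2 1.80-fold, Trp53 1.78-fold and Bbc3 1.69-fold.

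Ccng1 went the other way, with 111, 109 and 109 TPM in polyA RNA and 171 and 167 TPM in ribodepleted RNA, 1.66-fold lower in scaled TPM (log2 -0.73 ± 0.03, limma adjusted p = 2.04e-07). Plk2 was 1.54-fold lower and Trp53inp1 1.39-fold lower, and Mdm2 did not pass (log2 -0.08, adjusted p = 0.0668). The libraries also differed in the noncoding RNAs Rpph1 and Rmrp, which took 12.2% to 14.7% of TPM in the ribodepleted libraries and at most 0.0014% in the polyA libraries. The labels do not say whether the polyA and ribodepleted libraries shared cultures or a sequencing run. RNA selection and any such difference therefore cannot be told apart here.

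The order of levels, read per length in deposited TPM, depended on the group. In polyA RNA Trp53 came first with a mean of 321 TPM, followed by Mdm4 with 172 TPM and Ccng1 with 109.6 TPM, and no neighbours in the order overlapped between libraries. In ribodepleted WT RNA at 0 h Ccng1 and Trp53 led with means of 169 and 168 TPM and overlapped, Mdm2, Mdm4 and Trp53inp1 overlapped at 93.1, 88.2 and 82.5 TPM, and Cdkn1a came last with 5.00 TPM. In TKO RNA at 0 h Ccng1 led alone with 292 TPM against 207 TPM for Trp53, Plk2 stood sixth with 82.1 TPM, and Cdkn1a was again last with 12.9 TPM. Trp53 thus had a high mRNA level in all 5 groups, whereas Cdkn1a was last in all 4 ribodepleted groups and sixth in polyA RNA.

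Across the 8 ribodepleted libraries, Cdkn1a, Ccng1, Trp53inp1, Pmaip1, Btg2 and Plk2 varied together, with Pearson correlations of 0.925 to 0.991 between pairs on log2(scaled TPM + 1). Mdm2 followed these 6 genes with correlations from 0.838 (Pmaip1) to 0.953 (Plk2). Bbc3 followed none of the 6 (-0.12 to 0.05). Against the same 6 genes Mdm4 gave 0.51 to 0.72 and Trp53 0.33 to 0.61. The correlation of Trp53 with Mdm4 was -0.31. The 8 points fall into 4 groups that differ by genotype and by amanitin, so the correlations among the 6 genes hold the difference between genotypes that they share. The share of all pairs of tested genes with such correlations was not computed. The genes with the most similar profiles, again by Pearson correlation over 8 libraries, were Mageb16 (0.998), Mad1l1 (0.991) and Iah1 (0.988) for Trp53, Irf2bp2 (0.993), Tsr1 (0.993) and Mafg (0.992) for Mdm2, and Urgcp (0.998), Rhou (0.998) and Fam83g (0.997) for Cdkn1a.

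Other targets that p53 is known to induce were taken from a list of 36 genes, of which 35 were tested. At 0 h 15 of 35 passed as higher in TKO, 6 as lower and 14 did not pass, with a median log2 difference of 0.14, where 27.8% of all tested genes passed as higher and 28.2% as lower. Perp, a membrane protein of apoptosis and of desmosomes, had a mean scaled TPM of 50.1 in WT and 92.6 in TKO (limma adjusted p = 4.54e-05). Tap1, a peptide transporter of antigen presentation, stood at 1.71 and 3.82 (adjusted p = 0.000693). Xpc, a sensor of DNA lesions in nucleotide excision repair, went the other way with 27.1 and 19.6 (adjusted p = 0.000322), as did Ak1, an adenylate kinase, with 68.4 and 50.8 (adjusted p = 0.00017). The list therefore held genes that were higher and genes that were lower in TKO.

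After 4 h with amanitin 15 of 35 again passed as higher and 6 as lower in TKO, with a median of 0.12, against 29.1% higher and 30.3% lower over all tested genes. Gadd45a, a growth arrest protein of the stress response, stood at 43.1 in WT and 81.8 in TKO (limma adjusted p = 1.68e-05). Within WT cells amanitin left 2 of 35 higher and 9 lower, where 21.9% of all tested genes passed as higher and 15.8% as lower, with a median of -0.06 against 0.03. The split was 1 higher and 19 lower without size factors, where all tested genes split into 3.18% higher and 25.2% lower, and 0 higher and 1 lower without replicate 1 of WT at 4 h, where 3.04% of all genes tested passed. The kinase gene Plk3 fell from 32.5 to 23.2 mean scaled TPM (adjusted p = 0.0055), and Gdf15, a secreted stress cytokine, from 2.60 to 1.21 (adjusted p = 0.0154). Rps27l, a ribosomal protein paralogue, rose from 693 to 851 (adjusted p = 0.0129) and Ak1 from 68.4 to 78.2 (adjusted p = 0.0214). Genes of ribosomal proteins such as Rps27l have near-identical copies, so their values are uncertain. In TKO cells 0 of 35 passed after amanitin, where 0% of all tested genes passed as higher and 0.265% as lower. More passed without replicate 1 of TKO at 4 h, in this list and among all tested genes.

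**Figure D4:**
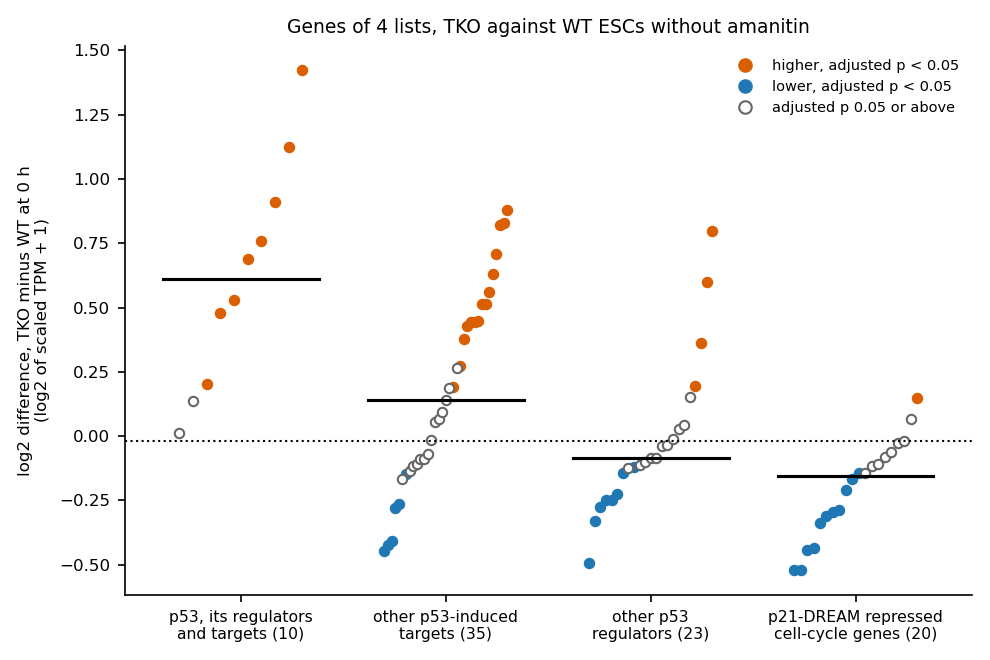
Log2 difference between TKO and WT at 0 h (log2 of scaled TPM + 1, vertical axis) of each tested gene in 4 lists, sorted within each list and coloured by direction where the adjusted p was under 0.05, with a bar at the list's median and a dotted line at the median of all tested genes. The medians are 0.61 for the 10 p53 pathway genes, 0.14 for other targets, -0.08 for other regulators and -0.16 for cell-cycle genes.

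The other regulators of p53 were mixed. Of 23 genes for kinases, ligases, deubiquitinases and cofactors that act on p53, 4 passed as higher and 8 as lower in TKO at 0 h, with a median of -0.08, where 27.8% of all tested genes passed as higher and 28.2% as lower. These counts moved with the scaling, to 5 higher and 4 lower without size factors, where all tested genes split into 33.4% higher and 17.6% lower. After quantile normalisation they were 6 and 6, against 27.0% and 29.1% of all tested genes. Cdkn2a, whose Arf product inhibits Mdm2 and whose other product p16 inhibits cyclin-dependent kinases, had a mean scaled TPM of 6.74 in WT and 12.3 in TKO (limma adjusted p = 0.00316), and its products were not counted apart. Smyd2, a lysine methyltransferase that restrains p53, stood at 41.3 and 63.1 (adjusted p = 3.07e-05). Hipk2, a kinase that activates p53, was lower in TKO with 5.48 and 3.60 (adjusted p = 0.00174), as was Trim24, a ligase for p53, with 108 and 85.6 (adjusted p = 0.00041). After amanitin 4 of 23 passed as higher and 10 as lower, with a median of -0.12, against 29.1% and 30.3% of all tested genes. Without size factors 5 passed as higher and 3 as lower, against 40.3% and 16.6%. Usp7, which removes ubiquitin from Mdm2 and p53, then stood at 345 in WT and 265 in TKO (adjusted p = 0.000102).

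Within WT cells amanitin left 4 of 23 regulators higher and 3 lower, where 21.9% of all tested genes passed as higher and 15.8% as lower. The counts were 0 higher and 6 lower without size factors, against 3.18% and 25.2% of all tested genes. Fewer passed without replicate 1 of WT at 4 h, in this list and among all tested genes. Smyd2 rose from 41.3 to 50.6 (limma adjusted p = 0.00749) and Rpl11, a ribosomal protein that sequesters Mdm2, from 1361 to 1657 (adjusted p = 0.0349). The acetyltransferase gene Ep300 fell from 22.7 to 18.1 (adjusted p = 0.0366) and the deacetylase gene Sirt1 from 92.3 to 80.0 (adjusted p = 0.0464). In TKO cells 0 of 23 passed, where 0% of all tested genes passed as higher and 0.265% as lower. Of the paralogues of p53, Trp63 did not reach the filter and Trp73, at about 1 scaled TPM, did not pass in any comparison.

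Cell-cycle genes known to fall when p53 raises p21, through the DREAM repressor complex, were also listed. In TKO at 0 h 11 of 20 passed as lower and 1 as higher, with a median of -0.16, where 28.2% of all tested genes passed as lower and 27.8% as higher. Without size factors 8 passed as lower and 2 as higher, against 17.6% and 33.4% of all tested genes. Mki67, the proliferation marker Ki-67, had a mean scaled TPM of 100.9 in WT and 69.9 in TKO (limma adjusted p = 0.00021), and the spindle checkpoint kinase gene Bub1b 199 and 139 (adjusted p = 1.43e-05). After amanitin 11 of 20 were lower and 0 higher in TKO, with a median of -0.25, against 30.3% lower and 29.1% higher over all tested genes. Without size factors 8 were lower and 3 higher, against 16.6% and 40.3%. In WT cells amanitin left 6 of 20 higher and 1 lower on the scaled values, where 21.9% of all tested genes passed as higher and 15.8% as lower. The counts were 0 higher and 3 lower without size factors, against 3.18% and 25.2% of all tested genes. After quantile normalisation they were 0 higher and 4 lower, against 12.1% and 11.3%. Fewer passed without replicate 1 of WT at 0 h or of WT at 4 h, in this list and among all tested genes. On the scaled values Ccnb2, a mitotic cyclin, rose from 165 to 195 (adjusted p = 0.0088), Cdc20, an activator of the anaphase ligase, from 422 to 489 (adjusted p = 0.0119), and Plk4, the kinase of centriole duplication, fell from 57.7 to 42.5 (adjusted p = 0.00998). In TKO cells 0 of 20 passed, where 0% of all tested genes passed as higher and 0.265% as lower.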

How the data were processed

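TPM values of 11 libraries were used as deposited. The authors removed low-complexity, ribosomal and transfer RNA reads, mapped the rest to mm9 with STAR, counted RefSeq genes with HTSeq and converted the counts to TPM, 1 library per file. Versions, the strand setting and the treatment of reads with several matches are not given in the sources used here. Whole reads were recovered from the TPM steps for 100% of 19869 genes above 0 (tolerance 0.02 reads). Replicates of a group did not repeat each other (chi-square per degree of freedom of at least 1.529 over 7 pairs within groups).

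Size factors (median of ratios) rescaled the TPM, and genes with a mean above 1 were kept. limma 3.58.1 under R 4.3.3 then took log2(scaled TPM + 1) with 1 coefficient per group and a variance trend, and tests were two-sided. The 8 ribodepleted libraries shared 1 fit and the polyA comparison had its own, with Benjamini-Hochberg adjustment over all tested genes. A gene passed at an adjusted p under 0.05. The pseudocount understates changes of low genes. Named genes were the 10 members, Tet1 to Tet3, per list and comparison the 2 largest passing rises and falls, and for Trp53, Mdm2 and Cdkn1a the 3 most similar genes. Markers were given as sums. A gene that this rule names is not reported here. Members and lists were chosen with earlier results of these data known. Comparisons that use the same libraries, such as WT at 0 h, are not independent.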

Additional observations from a re-analysis of the deposited data

How the results depend on the processing

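Beside the fit reported, 11 other settings and the fits without each library were run. In WT cells after amanitin the count of 5 of 10 genes became 3 after quantile normalisation and 2 with no filter on low values. Of all tested genes 37.7% passed in the fit reported, 23.4% after quantile normalisation and 17.7% with no filter. Beyond 1.5-fold the count was 0, against 2.01% of tested genes downwards and 0.0882% upwards. In TKO cells after amanitin the count of 0 became 2 with limma voom on recovered reads, a setting chosen after seeing the data. The share of all tested genes went from 0.265% to 5.91% between these settings. In both amanitin comparisons the counts also moved without single libraries, for the 10 genes and for all tested genes. In TKO against WT at 0 h the count of 8 became 5 beyond 1.5-fold, where 10.5% of tested genes passed upwards and 5.43% downwards. The count of 7 in TKO against WT after amanitin became 9 without size factors, after quantile normalisation and with the filter at 5 TPM. Of all tested genes 59.4% passed in the fit reported, and 56.9%, 56.0% and 60.2% in these settings. That of polyA against ribodepleted RNA stayed at 9, except for 8 beyond 1.5-fold. In the fit reported 81.0% of all tested genes passed there. The count of the test between genotypes stayed at 0, where 0% of all tested genes passed in the fit reported and 0.021% with no filter. A lone library left in a group was assumed to vary like the other groups.

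Differences that changed sign were close to 0 and did not pass under the main setting. Without size factors Pmaip1 gave -0.12 in WT and -0.095 in TKO after amanitin, Ccng1 -0.083 in TKO, Bbc3 0.098 in TKO against WT after amanitin, Mdm2 0.019 in polyA against ribodepleted RNA, and the differences between genotypes were 0.053 for Mdm2, 0.023 for Pmaip1, 0.019 for Btg2 and 0.015 for Plk2. After quantile normalisation Bbc3 gave 0.0092 in WT after amanitin and -0.027 in TKO against WT at 0 h, and in TKO after amanitin Ccng1 gave -0.063 and Pmaip1 -0.017. Pmaip1 in TKO gave -0.0073 with the filter at 5 TPM and -0.012 in a fit of the 4 libraries compared, Mdm2 between genotypes 0.0069 with the filter at 5 TPM, and Bbc3 at 0 h -0.019 with no filter.

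Without single libraries the ranges were -0.13 to 0.016 for Bbc3 in TKO against WT after amanitin, -0.13 to 0.015 for Bbc3 and -0.031 to 0.12 for Pmaip1 in WT after amanitin, and -0.042 to 0.073 for Ccng1, -0.032 to 0.038 for Pmaip1 and -0.18 to 0.055 for Trp53inp1 in TKO after amanitin. Between genotypes they were -0.12 to 0.029 for Btg2, -0.14 to 0.13 for Mdm2, -0.058 to 0.15 for Mdm4, -0.20 to 0.10 for Plk2, -0.12 to 0.028 for Pmaip1 and -0.036 to 0.20 for Trp53inp1. The causes were not tested.

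Replicate numbers did not pair the libraries, with correlations of deviations from -0.0443 to 0.119 over 6 pairs of groups. With the replicate number as a block 5 genes passed in WT and 0 in TKO after amanitin, against 38.3% and 0.225% of all tested genes. In TKO against WT 8 passed at 0 h and 8 after amanitin, with Mdm4 added (limma adjusted p = 0.0375), against 56.4% and 59.5%. In polyA against ribodepleted RNA 9 passed, against 78.5%. The block changed no other call. Depth limits Cdkn1a most, with 84 to 396 reads in the ribodepleted libraries.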
